A study of Mus musculus with 5464 samples.

Results

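Among 5464 kidney endothelial cells (ECs) sequenced one by one with SmartSeq2, a full-length single-cell RNA-seq method, 196 cells carried high Calca without the gene combination that marks the efferent arteriole, 3.59% of all cells (exact binomial 95% interval 3.11 to 4.11, counting error only). They are called Calca-only cells here. Calca encodes calcitonin and, by alternative splicing, calcitonin gene-related peptide (CGRP), a strong vasodilator, and in the kidney endothelium it is known as a marker of the efferent arteriole. The members were chosen on the level of 9 genes, where a level is a gene's counts divided by the cell's total counts and multiplied by 500000. A member had Calca at 50 or more, fewer than 2 of the 3 efferent arteriole genes Aif1l, Tspan8 and Efhd1 at 20 or more, the urea transporter gene Slc14a1 of the descending vasa recta under 50, the arterial gap junction gene Gja5 under 20, and fewer than 2 of the 3 glomerular genes Ehd3, Gata5 and Adamtsl5 at 20 or more. The values of these 9 genes chose the cells and are therefore given as a description with no test.

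The cells came from kidneys of female BTBRob/ob mice, a leptin-deficient model of obesity with type 2 diabetes, and of non-diabetic BTBRLean littermates, aged 6, 11 or 20 weeks, which makes 6 genotype-age groups. The methods name the BTBR strain, while the strain label of the deposit reads C57BL/6. Cells positive for the endothelial surface protein Pecam1 and for the live-cell dye Calcein were sorted after the papilla had been removed, so that vessels of the inner medullary tip are missing from the sample. The ob/ob mutation is present in all tissues, and cells of several mice per group were pooled in the labels, which name no animal. Each group was therefore treated as 1 sample: the counts of all cells of a class in a group were added up, and tests compared classes over the 6 groups. Each of the 22 plates held cells of a single group, so that plate effects and genotype cannot be told apart.

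Blood enters the glomerulus through the afferent arteriole, passes the glomerular capillaries, leaves through the efferent arteriole and then feeds the peritubular capillaries or, from deep glomeruli, the descending vasa recta. Arteries and afferent arterioles carry the transcription factor Sox17, the connexins Gja4 and Gja5 and the tight junction protein Cldn5. Efferent arterioles, as the paper describes them, carry the elastic fibre gene Fbln5 with very low Cldn5 and without the angiotensin-converting enzyme gene Ace. Peritubular capillaries and ascending vasa recta are fenestrated, and their openings are bridged by diaphragms made of Plvap. An efferent vessel joins a capillary network to an arteriolar wall. The question asked here was which of these vessel types the Calca-only cells resembled.

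For comparison, 366 efferent-gated cells had 2 or more of Aif1l, Tspan8 and Efhd1 at 20 or more. The remaining 4902 cells were assigned in order to an Slc14a1 gate (362 cells), a glomerular gate (817), a Gja5 gate (478), a Plvap gate with Plvap at 100 or more (3042) and a rest (203). A further comparison class held the 3245 cells that passed every exclusion that the members passed but had Calca under 50, called Calca-low ungated cells, which are the Plvap-gated cells and the rest together. Median depth was close between classes, with 288144 counts and 4003 detected genes in Calca-only cells, 296866 counts in efferent-gated cells and 284547 counts and 3958 genes in Plvap-gated cells. The summed counts per group ran from 6298866 to 16430289 for Calca-only cells. Levels are not divided by gene length, so a level is compared only with other levels of the same gene.

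The rule itself separates the members from the cells left behind by their Calca, so only the shape of the distribution is described. Within cells that passed all exclusions, 2140 had no Calca count, 1087 had a level above 0 and under 20, 18 lay from 20 to under 50, and 7 lay from 50 to under 100. Above that, 43 cells lay from 100 to under 250, 45 from 250 to under 500, 66 from 500 to under 1000 and 35 at 1000 or more. The threshold thus fell in a thinly filled stretch of the distribution, with members just inside it at 57.6, 58.4 and 65.5 and excluded cells just outside it at 49.5, 46.0 and 42.7.

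Most cells with Calca at 50 or more lay outside the efferent gate. Members had to reach this level and efferent-gated cells did not, so the rule sets the direction of the differences in Calca below. Of 310 cells with Calca at 50 or more, 196 were members and 63 were efferent-gated, and the members carried 61.9% of all Calca counts against 21.4% in efferent-gated cells. The remaining such cells lay in the glomerular gate (21), the Gja5 gate (19) and the Slc14a1 gate (11). Summed over the cells of a group, Calca had a level of 425 to 697 in Calca-only cells and 70.0 to 138 in efferent-gated cells, of which 178 of 366 had no Calca count. Among the 63 efferent-gated cells with Calca at 50 or more, the group sums ran from 375 to 767 and overlapped those of the members.

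**Figure D1:**
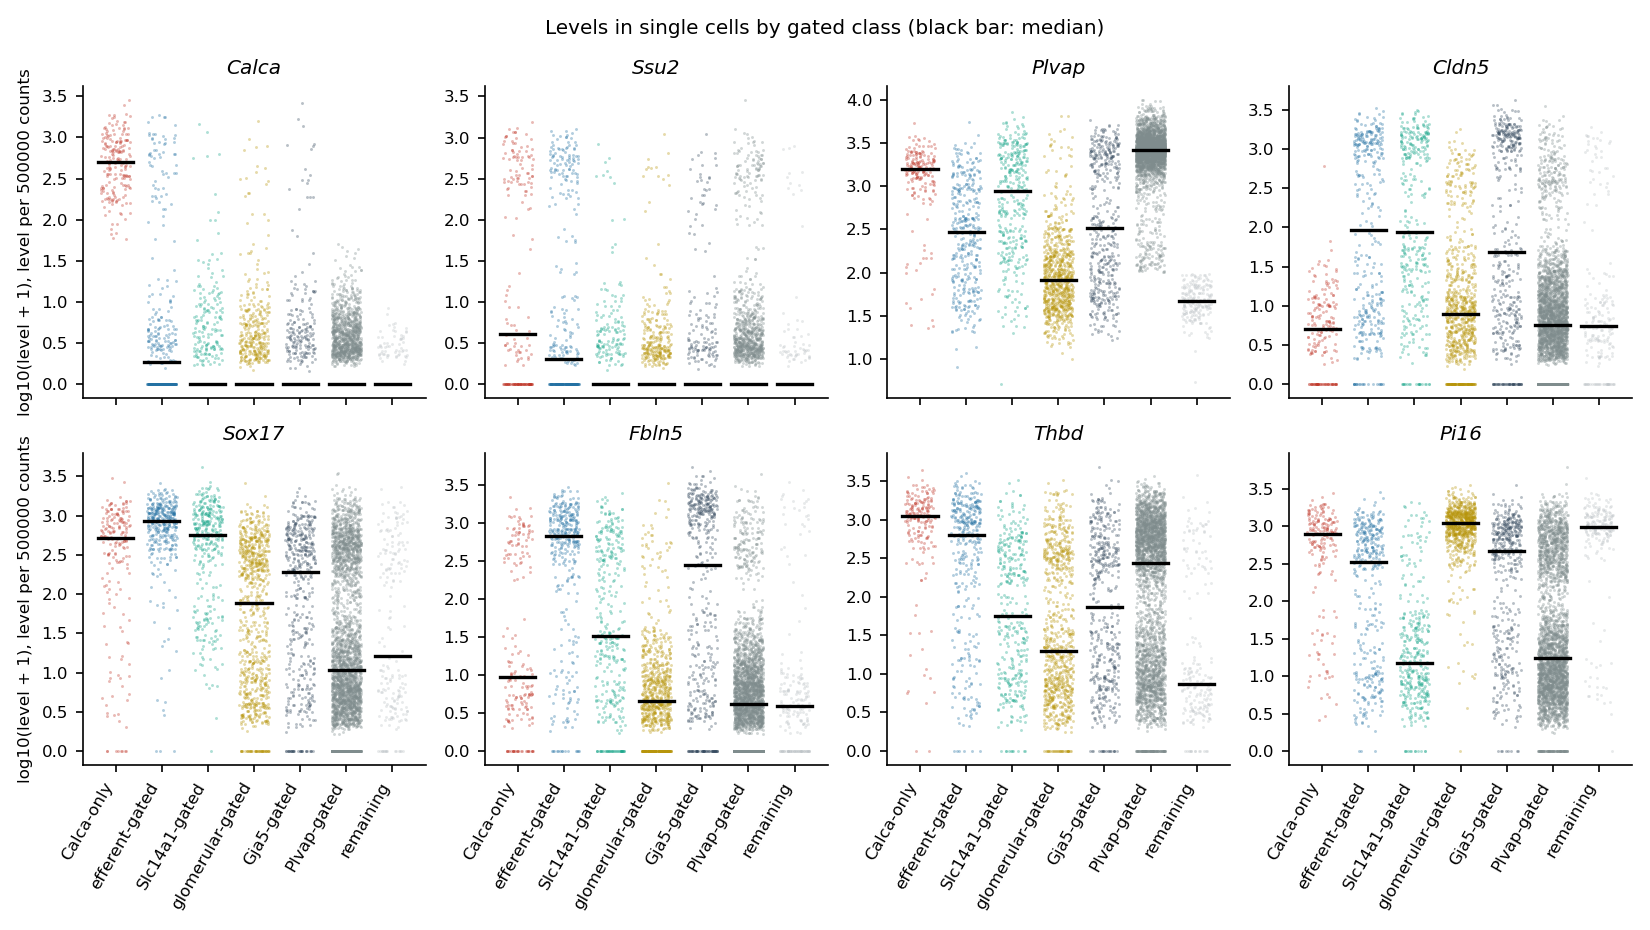
Levels of 8 genes in single cells by gated class; the vertical axis is log10(level + 1) with the level per 500000 counts, each point is a cell and the black bar is the class median. As a class, Calca-only cells sit high in Plvap, Sox17, Thbd and Pi16 and low in Cldn5, and split into a high and a low set for Ssu2 and Fbln5.

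The rule did not remove every trace of efferent genes. No efferent gene reached 20 in 126 members, and 1 of the 3 did in 70, which was Efhd1 in 36 cells, Aif1l in 19 and Tspan8 in 15. Leaving out these 70 cells reduced the share of members to 2.31% of all cells.

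Members were found in all 6 groups. They made up 5.10% of cells (54 cells) in 6-week BTBRLean mice, 3.85% (26) in 6-week BTBRob/ob mice, 2.69% (37) in 11-week BTBRLean mice, 3.92% (34) in 11-week BTBRob/ob mice, 3.91% (23) in 20-week BTBRLean mice and 2.44% (22) in 20-week BTBRob/ob mice. Single plates ranged from 0.704% to 6.5%, with 1 to 21 members per plate, and in 6-week BTBRLean mice alone from 0.704% to 6.29%. Plates of this 1 group thus spread more widely than the 6 groups did, and no order of genotypes or ages was read from these shares.

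**Figure D2:**
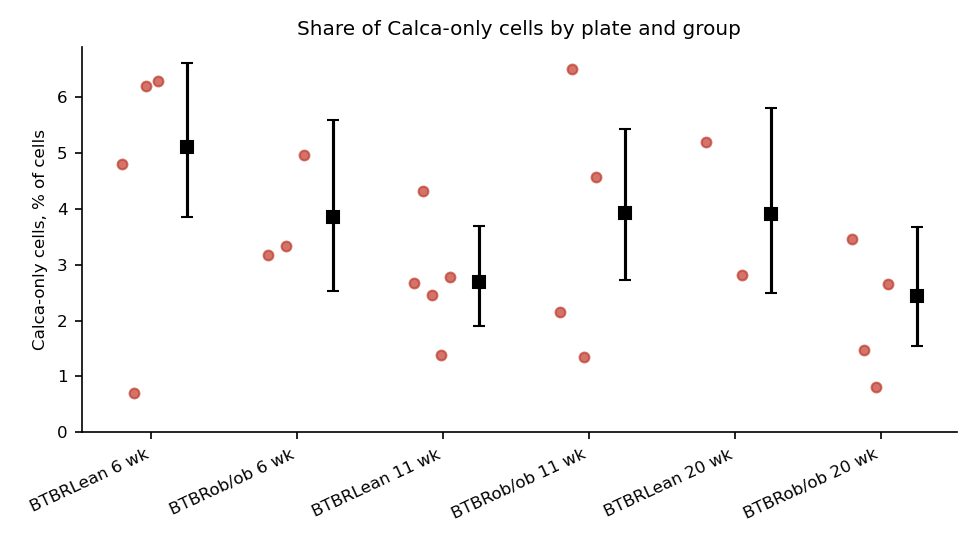
Calca-only cells as a percentage of all cells, by group; red points are plates, black squares are groups with exact binomial 95% intervals that cover counting error only. Plates of the same group spread from 0.704% to 6.29% in 6-week BTBRLean mice, about the range of all 22 plates.

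Ssu2, the other gene named as a marker of these cells, was shared with efferent-gated cells and set both apart from the remaining endothelium. Its level in the 6 group sums of Calca-only cells was 310, 305 and 121 in the BTBRLean groups from the youngest to the oldest and 175, 133 and 219 in the BTBRob/ob groups. Efferent-gated cells had 103 to 167 (median 133), and Calca-low ungated cells had 6.30 to 32.2 (median 16.0). Every Calca-only sum was above every ungated sum, while the ranges of Calca-only and efferent-gated cells overlapped. Ssu2 was 3.85 ± 0.29 (log2 fold change ± SE) higher than in ungated cells (adjusted p = 0.00035, edgeR's quasi-likelihood test, Benjamini-Hochberg adjusted over all genes) and 4.04 ± 0.25 higher than in all other cells (adjusted p = 1.2e-06, same edgeR test). The difference from efferent-gated cells, 0.69 ± 0.22, did not pass the same edgeR test (adjusted p = 0.13), and it was -0.36 ± 0.32 against efferent-gated cells with Calca at 50 or more.

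Not every member carried Ssu2. It reached 20 in 42.9% of Calca-only cells, 31.1% of efferent-gated cells, 65.1% of efferent-gated cells with Calca at 50 or more and 3.88% of Plvap-gated cells. Within the members, the level of Ssu2 was 185, 182, 205 and 345 from the lowest to the highest of 4 equal bins of Calca level (Spearman rho 0.11 over 196 cells that share plates and depth). The glomerular-gated cells, taken as a type that should hold little of it, had Ssu2 at 20 or more in 2.33%. Ssu2 lies at chr6:112359324-112388023 and Calca at chr7:114631478-114636357 (GRCm38, both protein-coding and on the minus strand).

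In the comparison with efferent-gated cells, 259 of 16892 genes tested were higher in Calca-only cells (1.53%) and 285 were lower (1.69%) at an adjusted p under 0.05 (edgeR quasi-likelihood test, group as a block). The median gene had a log2 fold change of -0.10. The leading higher genes included the peritubular capillary genes Plvap and Igfbp5, and the leading lower genes included Cldn5 and Kcnn4, which are listed for arteries. Genes that go along with the 9 rule genes from cell to cell can differ here through the rule itself, and 123 of the efferent-gated cells also carried Slc14a1 at 50 or more and 89 carried Gja5 at 20 or more, both of which the members lacked by choice.

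Plvap, which forms the diaphragms of fenestrae, stood at 882 to 1769 (median 1601) in the Calca-only sums and at 435 to 634 (median 567) in the efferent-gated sums. The lowest Calca-only value, in 6-week BTBRob/ob mice, was still above the highest efferent-gated one. The log2 fold change was 1.53 ± 0.11 (adjusted p = 3.5e-06, edgeR). Ranges of the 6 groups did not overlap for 277 of the 16892 genes (1.64%), Plvap among them. Against Calca-low ungated cells, whose sums ran from 2085 to 2973, Plvap was 0.55 ± 0.12 lower (adjusted p = 0.037, edgeR), a difference no larger than that of the median gene in that comparison, -0.63. This last call ended when any of 4 groups was left out (adjusted p up to 0.11) and under DESeq2.

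Igfbp5, which encodes a binding protein for insulin-like growth factors in glomerular and peritubular capillaries, had a level of 266 to 469 in Calca-only sums and of 9.08 to 48.6 in efferent-gated sums. These ranges lay far apart, and the log2 fold change was 3.64 ± 0.26 (adjusted p = 3.3e-06, edgeR). Kdr, the main receptor of vascular endothelial growth factor, ran from 207 to 558 against 104 to 177 (1.59 ± 0.12), and was 0.90 ± 0.13 lower than in ungated cells. Rgcc, a cell cycle regulator, took a like place between the classes, with 106 to 302 in Calca-only sums, 20.3 to 98.8 in efferent-gated sums and 411 to 767 in ungated sums. For Kdr and Rgcc the members therefore lay between the efferent-gated and the ungated cells with no overlap on either side.

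Other leading genes that were higher than in efferent-gated cells were Ppap2a, a lipid phosphatase gene (1.14 ± 0.06), Ramp3, a receptor partner of Calcrl (1.51 ± 0.09), Sgk1, a serine/threonine kinase gene (1.11 ± 0.07), Slc43a3, a purine base transporter gene (1.57 ± 0.13), and Jup, which encodes the junction protein plakoglobin (1.22 ± 0.10). All 5 were higher in 6 of 6 groups with no overlap of the ranges. Of 9 pan-endothelial genes, 5 were higher in Calca-only cells (Pecam1, Kdr, Flt1, Emcn and Egfl7) and none was lower, with a list median of 0.52. Of 10 peritubular capillary genes, Plvap, Igfbp5 and the MHC class II gene H2-Ab1 (1.23 ± 0.21) were higher and none was lower, with a list median of 1.38.

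Arterial genes were divided. Cldn5, which seals tight junctions, had a level of 1.94 to 17.1 (median 6.73) in the Calca-only sums and of 406 to 688 (median 624) in efferent-gated sums. The 2 ranges were far apart, with a log2 fold change of -6.29 ± 0.37 (adjusted p = 6.1e-07, edgeR). Cldn5 was also under the level in Calca-low ungated cells, 28.6 to 75.5, with a log2 fold change of -3.02 ± 0.43 (adjusted p = 0.0096, edgeR). It reached 20 in 8.67% of members, 58.7% of efferent-gated cells and 17.2% of Plvap-gated cells, so that the sums of the comparison classes rest on a part of their cells.

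Sox17, the arterial transcription factor, had by contrast 415 to 668 in Calca-only sums, 769 to 1031 in efferent-gated sums and 124 to 194 in ungated sums. All 3 ranges were separate, and the members lay nearer to the efferent-gated cells. Against ungated cells Sox17 was 1.92 ± 0.13 higher (adjusted p = 0.00023, edgeR), and against efferent-gated cells the difference of -0.52 ± 0.14 did not pass the test (adjusted p = 0.058, edgeR). In single cells it reached 20 in 84.7% of members, 97.3% of efferent-gated cells and 39.3% of Plvap-gated cells.

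Of the 15 genes listed for afferent arterioles and arteries, 6 were lower in Calca-only than in efferent-gated cells (Cldn5, Cxcl12, Gja4, Bmx, Mgp and Kcnn4), Sost, an inhibitor of Wnt signalling, was higher, and 8 did not pass, with a list median of -1.72. The call for Gja4 ended without any of 4 groups and that for Sost without any of 5 (adjusted p up to 0.17 and 0.15). Kcnn4, a calcium-activated potassium channel gene of the endothelium-dependent relaxation pathway, had 0 to 0.319 in the Calca-only sums and 5.77 to 67.3 in the efferent-gated sums. Bmx, a kinase gene typical of large arteries, had 0 to 0.736 against 14.2 to 119. Neither gene was found above a trace in the members, and neither range overlapped.

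Genes listed for the efferent arteriole and the descending vasa recta were lower as well. Of the 4 efferent arteriole genes outside the rule all were lower than in efferent-gated cells: the matrix gene Npnt (-4.18 ± 0.51), the elastic fibre gene Fbln5 (-1.36 ± 0.24), the vasoconstrictor gene Edn1 (-1.54 ± 0.24) and the chemokine gene Cxcl12 (-2.12 ± 0.28). These genes are listed for the same vessel as the 3 gate genes, and their direction is therefore not independent of the rule. Of 6 descending vasa recta genes, 5 were lower (Aqp1, Scin, Igfbp3, Slc5a3 and Cldn5), with a list median of -3.80. The rule kept Slc14a1 at 50 or more out of the members, while 123 efferent-gated cells carried it. The direction of this list is therefore not independent of the rule either. The water channel gene Aqp1 had 11.6 to 98.7 in Calca-only sums and 718 to 2346 in efferent-gated sums, with no overlap. Against efferent-gated cells with Calca at 50 or more, its log2 difference was -0.18 ± 0.38 and did not pass.

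The remaining leading genes that were lower than in efferent-gated cells were Htra1 (-6.55 ± 0.32), Csf2rb (-7.73 ± 0.49), Ctgf (-5.76 ± 0.40), Hpgd (-8.12 ± 0.63), Lamc3 (-9.18 ± 0.75) and Olfm2 (-7.08 ± 0.59). Their levels in the Calca-only sums lay between 0 and 3.23, so these fold changes depend on how near 0 the members were. Such genes were often carried by few cells of the comparison class: 128 of the 285 lower genes reached 20 in under 5% of efferent-gated cells.

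**Figure D3:**
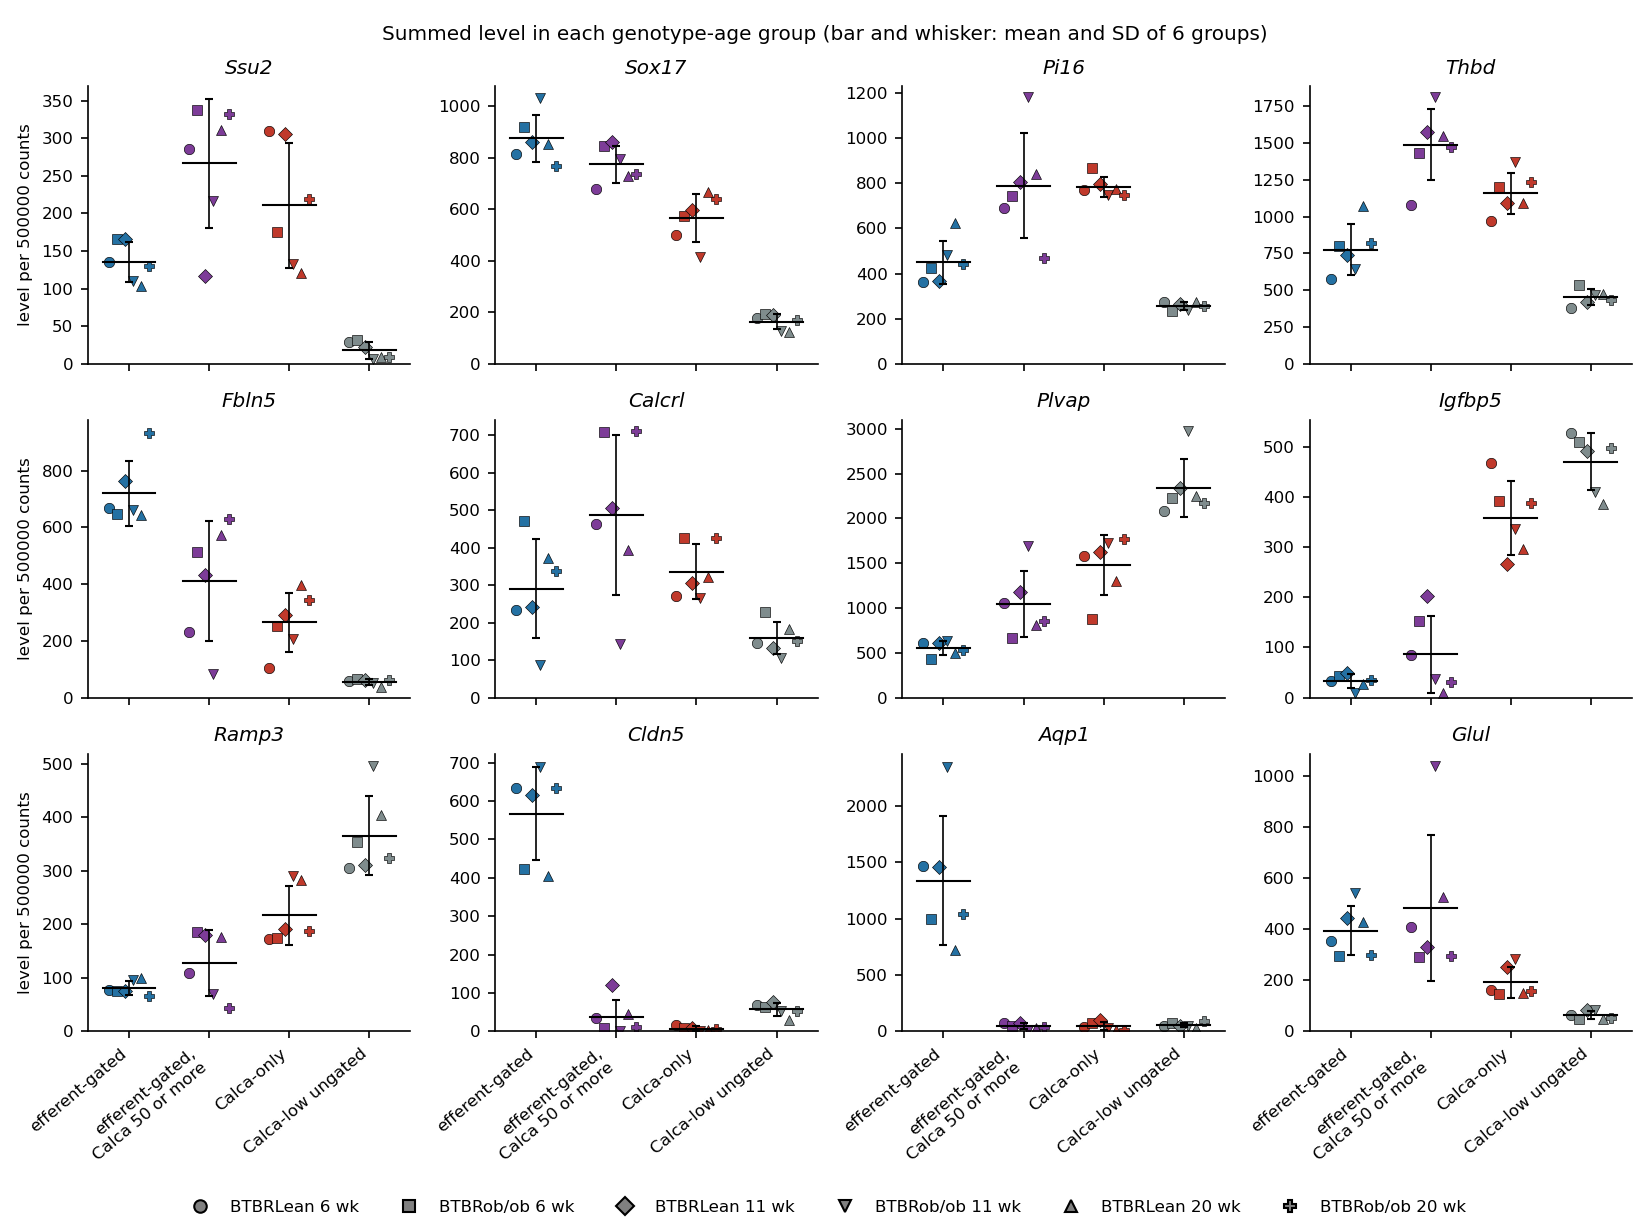
Summed levels of 12 genes per 500000 counts in each of the 6 genotype-age groups (symbols), for efferent-gated cells, efferent-gated cells with Calca at 50 or more, Calca-only cells and Calca-low ungated cells; the bar and whisker give the mean and SD of the 6 groups. Calca-only cells stand with efferent-gated cells for Ssu2, between the outer classes for Plvap, Ramp3 and Sox17, and near 0 for Cldn5 and Aqp1.

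Few genes passed once both sides carried Calca. Against the 63 efferent-gated cells with Calca at 50 or more, 4 to 15 per group, 8 of 15017 genes passed the edgeR test, where 1680 had an unadjusted p under 0.05. Of the 8, Jup (1.02 ± 0.11) and Ppap2a (0.58 ± 0.07) were higher in Calca-only cells, and the intermediate filament gene Vim (-1.01 ± 0.15) and the glutamine synthetase gene Glul (-1.19 ± 0.18) were lower. Rnf24, Ifi202b, Ncapd3 and Trp53i11 were higher too, and were named, with Vim, after their values were seen. With so few cells in the comparison class, a difference that did not pass is not shown to be absent.

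The intervals of these differences show how far the 2 Calca-positive classes could lie apart. For Aqp1 the log2 difference was -0.18 (95% interval -0.92 to 0.56), and the efferent-gated cells with Calca had a level of 14.8 to 76.3, within the range of the members. For Pi16 it was 0.08 (-0.17 to 0.33), for Nrp1 0.16 (-0.04 to 0.37) and for Fbln5 -0.48 (-1.11 to 0.15). For Plvap it was 0.59 (0.35 to 0.83), for Igfbp5 2.51 (1.55 to 3.47), for Cldn5 -1.84 (-3.27 to -0.41) and for Npnt -2.85 (-3.96 to -1.74). These last 4 intervals lie on one side of 0, although none of the 4 genes passed after adjustment.

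Among the sums themselves, Igfbp5 had 8.68 to 203 in efferent-gated cells with Calca at 50 or more, under every Calca-only sum. Glul had 292 to 1038 there and 148 to 283 in Calca-only cells, with no overlap. Cldn5 had 0.594 to 122, which overlapped the members. A cell with Sox17 and Plvap both at 100 or more and Cldn5 under 20 was found in 67.9% of Calca-only cells (exact 95% interval 60.8 to 74.3, counting error only) and in 66.7% of efferent-gated cells with Calca (53.7 to 78.0). The same combination held for 27.6% of all efferent-gated cells, 23.9% of Plvap-gated, 21.8% of Slc14a1-gated, 15.1% of Gja5-gated and 10.8% of glomerular-gated cells. Its genes are those whose levels in the members are described above, so these shares restate those levels and are no separate evidence.

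A limit on the efferent gate chosen after the data were seen gave a result between these. Against the 217 efferent-gated cells with Slc14a1 under 50 and Gja5 under 20, of which 57 had Calca at 50 or more, 95 genes were higher and 90 lower of 15675. Of these 185 genes, 166 also passed against all efferent-gated cells, all 166 in the same direction. Plvap (1.29 ± 0.12) and Igfbp5 (3.33 ± 0.36) stayed higher and Cldn5 (-5.41 ± 0.42) and Fbln5 (-1.46 ± 0.24) lower, while Thbd (0.12 ± 0.07) and Pi16 (0.25 ± 0.13) no longer passed.

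The members were then set against cells matched on every exclusion but low in Calca. Of 19579 genes tested, 183 were higher in Calca-only than in Calca-low ungated cells (0.935%) and 840 were lower (4.29%) by the edgeR test. Ranges of the 6 groups did not overlap for 1202 genes (6.14%). Of the 840 lower genes, 713 reached 20 in under 5% of ungated cells, a class that mixes several vessel types, whereas the higher genes reached 20 in a median of 50.5% of members.

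Pi16, a peptidase inhibitor gene listed for glomerular capillaries, led the higher genes with 748 to 868 in Calca-only sums and 232 to 275 in ungated sums, 1.75 ± 0.08 on the log2 scale (adjusted p = 3.4e-05, edgeR). Efferent-gated cells had 363 to 623, also under every Calca-only sum. Thrombomodulin (Thbd), the endothelial anticoagulant receptor, had 970 to 1372 in Calca-only sums and 381 to 537 in ungated sums, 1.49 ± 0.07 higher (adjusted p = 3.4e-05, edgeR). Its efferent-gated range of 574 to 1075 overlapped that of the members. Within the members, the level of Thbd was 889 in the lowest of 4 equal bins of Calca level and 1355 in the highest (Spearman rho 0.25 over 196 cells, which share plates and depth).

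The taurine transporter gene Slc6a6 (1.23 ± 0.08), the LIM domain gene Crip1 (1.64 ± 0.12), Glul (1.70 ± 0.12), the calcium-binding protein gene S100a4 (3.04 ± 0.21) and Syn3 (1.04 in log2) were the other leading genes that were higher than in ungated cells. Syn3 is uncertain, because its exons overlap those of Timp3 on the opposite strand and the strand setting of the counting is not given in the sources used here. The same holds in smaller part for further named genes whose exons overlap other annotated genes on the opposite strand. Among them are Sox17, Glul, Pi16, Ramp3, Fam174b, Smtn, Prelp, Rnf24, Lamc3, Nr2f2, Ace, Slc6a6 and Pkn3. Ramp2 has an exon overlap of up to 637 bases with Vps25 on the same strand.

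Of the 15 afferent and arterial genes, 5 were higher than in ungated cells (Sox17, Gja4, Fbln2, Cxcl12 and Sost) and 4 were lower (Ace, Cldn5, Kcnn4 and Igfbp4), with a list median of -2.27 against -0.63 for all genes. The call for Sost ended without any of 5 groups (adjusted p up to 0.075, edgeR). The elastic fibre gene Fbln2 had 87.9 to 480 in Calca-only sums and 30.7 to 45.2 in ungated sums (3.00 ± 0.28). The connexin gene Gja4 had 185 to 309 against 73.0 to 118 (1.45 ± 0.16). Neither range overlapped. Angiotensin-converting enzyme (Ace), which marks the afferent arteriole, did not reach 20 in any of the 196 members, which allows a share of up to 1.86% (exact binomial 95% interval).

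Of the 4 efferent arteriole genes outside the rule, 3 were higher than in ungated cells: Fbln5 (2.28 ± 0.29), Edn1 (1.83 ± 0.32) and Cxcl12 (2.28 ± 0.47). The call for Cxcl12 ended without any of 5 groups (adjusted p up to 0.079) and that for Edn1 without either of 2, the 6-week BTBRob/ob and the 11-week BTBRLean group (up to 0.061). Fbln5 had 103 to 397 in Calca-only sums, 645 to 934 in efferent-gated sums and 37.1 to 64.7 in ungated sums, with no overlap between any of the 3. In single cells it reached 20 in 39.3% of members, 82.2% of efferent-gated cells and 12.7% of Plvap-gated cells, so the middle level came from a part of the members and not from a low level in all of them.

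Genes that act on vascular tone and endothelial calcium went both ways against ungated cells. Trpv4, a calcium channel gene, had 45.9 to 160 in Calca-only sums and 8.68 to 23.0 in ungated sums (2.65 ± 0.35). Atp2a3, a calcium pump gene of the endoplasmic reticulum, had 197 to 393 against 43.6 to 98.3 (2.24 ± 0.17). In both, every Calca-only sum was above every ungated sum, and neither difference from efferent-gated cells passed the edgeR test (-0.67 ± 0.28 and -0.22 ± 0.14). Of the 14 vascular tone genes, 3 were higher than in ungated cells (Edn1, Trpv4 and Atp2a3) and 4 were lower (Ptgs1, Kcnn4, F2rl1 and Ednrb). The other 7 did not pass, and the list median was -1.94 against -0.63 for all genes. The endothelin B receptor gene Ednrb took a middle place, 1.29 ± 0.18 higher than in efferent-gated and 1.10 ± 0.13 lower than in ungated cells. Of 16 shear stress and immediate early genes, the flow-responsive transcription factor genes Klf2 (0.71 ± 0.13) and Klf4 (1.07 ± 0.21) and the nuclear receptor gene Nr4a1 were higher than in ungated cells and none was lower. The calls for Klf4 and Nr4a1 ended without any of 5 groups, that for Klf2 without the 11-week BTBRLean group (adjusted p = 0.058, edgeR), and those for Ptgs1 and Kcnn4 without any 1 of the 6.

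**Figure D4:**
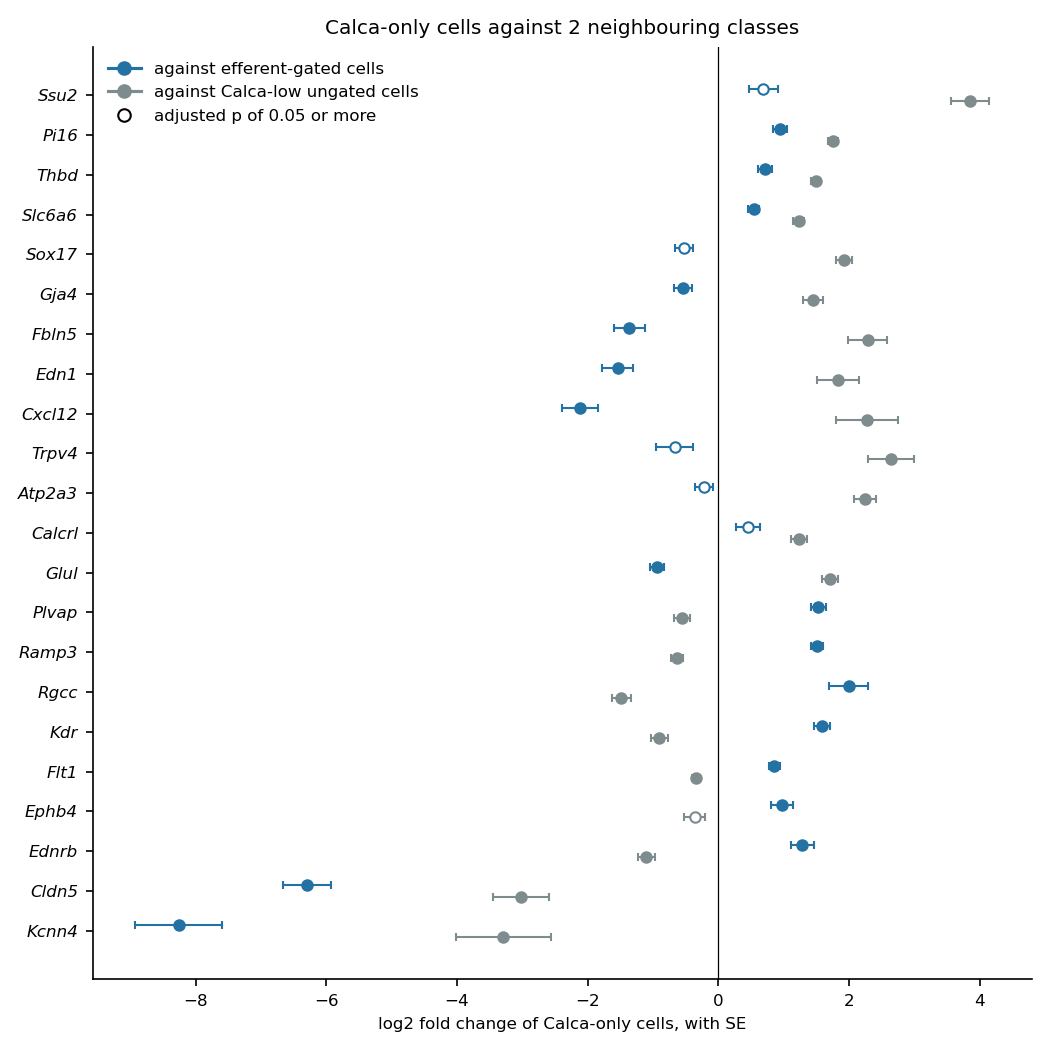
Log2 fold changes of Calca-only cells for 22 genes with standard errors, against efferent-gated cells (blue) and against Calca-low ungated cells (grey); filled points have an adjusted p under 0.05 in the edgeR test. From Sox17 to Glul most genes lie on opposite sides of 0 in the 2 comparisons, as Plvap to Ednrb do in the other direction, whereas Cldn5 and Kcnn4 are lower in both.

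The genes that were lower than in ungated cells included genes listed for veins, growing vessel tips, capillaries and lymphatics. The carbonic anhydrase-related gene Car8, found in peritubular, ascending and venous ECs, had 0.390 to 2.03 in Calca-only sums and 45.3 to 96.1 in ungated sums (-6.27 ± 0.38). Igf1, the insulin-like growth factor gene of ascending vasa recta and veins, had 0.171 to 4.83 against 15.5 to 58.1 (-5.33 ± 0.59). The tip cell genes Apln (0.0571 to 0.520 against 11.7 to 39.5) and Angpt2 (0.229 to 0.866 against 16.4 to 61.5) were likewise near 0 in every group of members. None of these ranges overlapped.

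Counted by list, 5 of 6 tip cell genes, 6 of 8 vein genes, 4 of 6 ascending vasa recta genes, 4 of 10 peritubular capillary genes and 5 of 7 lymphatic genes were lower than in ungated cells, and no gene of these lists was higher. The list medians were -5.96, -3.10, -1.21, -0.74 and -4.98. The calls for Nr2f2 and Il33 ended when any 1 group was left out (adjusted p up to 0.11 and 0.10). Those for Esm1 (tip cell) ended without any of 4 groups, for Icam1 (vein) without any of 3 and for Npr3 (peritubular capillary) without either of 2 (adjusted p up to 0.084, 0.070 and 0.055, edgeR). Apoe, the lipid carrier gene (-4.08 ± 0.36), Rgcc (-1.49 ± 0.15), Smtn, Fam174b and Prelp completed the leading lower genes. Igfbp5 was not among them: its sums of 387 to 527 in ungated cells overlapped those of the members, as did the sums of the mucin gene Emcn, 936 to 1162 against 913 to 1193.

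Against all other cells as 1 class, 345 of 16892 genes were higher in Calca-only cells (2.04%) and 1234 were lower (7.31%) by the edgeR test, and 1382 genes did not overlap between the groups (8.18%). Thbd (1.79 ± 0.11), Ssu2, Slc6a6 (1.37 ± 0.09), the kinase gene Pkn3 (1.73 ± 0.11), Crip1 (1.49 ± 0.10), Syn3, Glul and the calcium-binding protein gene S100a6 (1.25 ± 0.09) were the leading higher genes. Htra1, Cldn5, Ctgf, Csf2rb, Angpt2, Mmp2, Apoe and Kcnn4 were the leading lower genes. Of the 1234 lower genes, 1103 reached 20 in under 5% of the other cells. Under upper-quartile normalization the higher genes made up 11.2% of the calls instead of 21.8%.

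Over whole profiles the Calca-only cells came nearest to the Plvap-gated cells. Across 9481 genes outside the rule, Pearson's r of log2 levels pooled over groups was 0.908 with Plvap-gated cells, 0.876 with efferent-gated, 0.870 with glomerular-gated, 0.857 with Slc14a1-gated and 0.855 with Gja5-gated cells. Within groups, r ran from 0.722 to 0.819 with Plvap-gated and from 0.634 to 0.747 with efferent-gated cells, and the Plvap-gated class gave the highest r in 6 of 6 groups. These values are across genes that share libraries and are a description. Plvap-gated cells passed the same exclusions as the members, and 94.9% of members had Plvap at 100 or more. Without their Calca most members would thus fall in the Plvap gate, so the rule sets part of this likeness. The Plvap gate holds 3042 cells and the efferent gate 366, and the part of class size in r was not tested. The 217 efferent-gated cells with neither Slc14a1 nor Gja5 gave an r of 0.891. Efferent-gated cells with Calca at 50 or more, a class of few cells, gave 0.873.

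By a count of large differences the Plvap-gated and the efferent-gated cells were about equally far from the members. Genes that differed more than 4-fold in the same direction in all 6 groups numbered 162 against Plvap-gated cells, 163 against efferent-gated cells, 211 against Slc14a1-gated, 242 against Gja5-gated and 279 against glomerular-gated cells. Of the 163 genes against efferent-gated cells, 18 were higher and 145 lower in Calca-only cells. The number was 88 against the efferent-gated cells with neither Slc14a1 nor Gja5. Against efferent-gated cells with Calca at 50 or more it was 188, of which 162 were higher and 26 lower in Calca-only cells. That count used only the 4 groups with 10 or more such cells, so it is not on the same footing as the others.

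**Figure D5:**
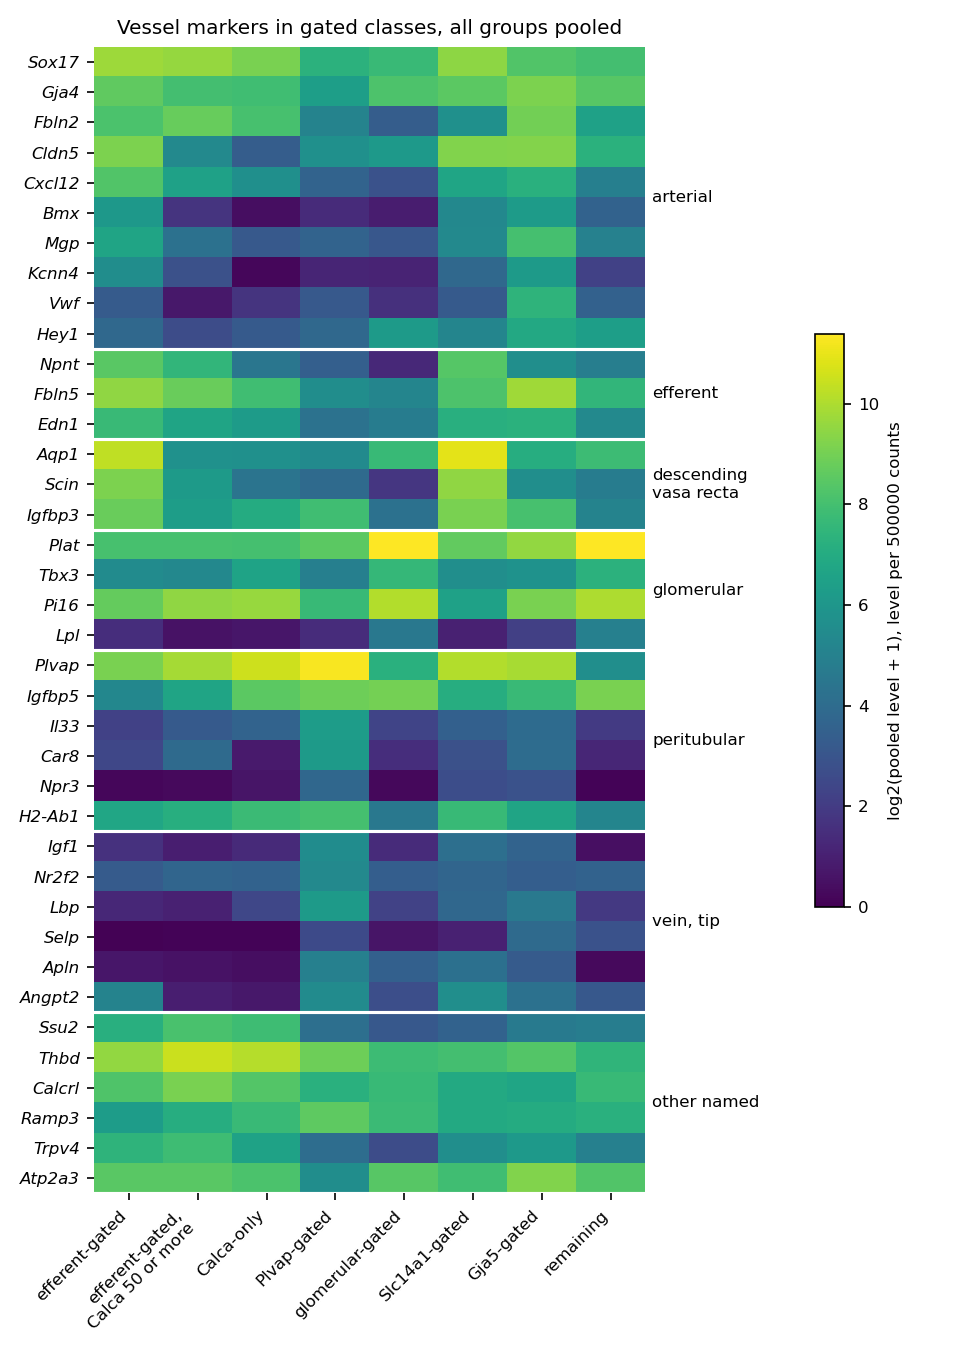
Pooled levels of vessel markers in 8 classes, as log2(level + 1) with the level per 500000 counts; rows are genes grouped by the vessel they are listed for and columns are classes. The Calca-only column shares high Sox17, Fbln2, Ssu2 and Thbd with the efferent-gated columns and high Plvap and Igfbp5 with the Plvap-gated column, and is near 0 for Bmx, Kcnn4, Igf1, Apln and Angpt2.

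The label of the cells was checked against these markers. Calca-only cells had pooled levels of 55.5 for Aif1l, 53.8 for Tspan8 and 66.4 for Efhd1, against 221, 548 and 377 in efferent-gated cells, which the rule fixes in part. Set against efferent-gated and ungated cells, their arterial and arteriolar genes outside the rule did not share a single pattern. Sox17, Gja4, Fbln5, Edn1 and Cxcl12 lay between the levels of efferent-gated and ungated cells, Fbln5 through a part of the members only. Cldn5, Kcnn4, Ace and Igfbp4 were lower than in ungated cells by the edgeR test, and Bmx was found at no more than a trace. Very low Cldn5 and absent Ace are also what the paper describes for the efferent arteriole. The efferent-gated cells, with their high Cldn5 sums, departed from that description. The paper names Tspan8, a gene of the efferent gate, and Npnt as high in descending vasa recta too. The diaphragm gene Plvap stood at 100 or more in 94.9% of Calca-only cells. It did so in 88.9% of efferent-gated cells with Calca at 50 or more and in 71.3% of all efferent-gated cells. The share was 89.0% in Slc14a1-gated, 70.7% in Gja5-gated and 40.1% in glomerular-gated cells, so this threshold is not particular to the members. With these mixed levels, no single vessel name is given to them here. Genes of other cell types were low: the summed level ran from 0.865 to 29.7 over groups for 8 mural genes, from 0.714 to 38.6 for 7 tubular genes, from 0 to 16.3 for 6 immune genes (2 of them at 0), from 0 to 12.6 for 4 fibroblast genes and from 0 to 0.182 for 6 sensory neuron genes (3 of them at 0). For 4 podocyte genes it ran from 14.6 to 137, against 38.6 to 116 in efferent-gated and 21.9 to 45.0 in ungated cells, and the part of these counts in the results was not tested.

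The machinery around CGRP was looked at as a list. CGRP acts on a receptor made of Calcrl with Ramp1, and adrenomedullin on Calcrl with Ramp2 or Ramp3. Ramp1, the calcitonin receptor gene Calcr and the genes of amylin (Iapp) and adrenomedullin 2 (Adm2) had no count in the 196 cells, which allows a pooled level of up to 0.0304 each (exact Poisson 95% interval, which covers counting error only and takes reads as independent molecules). Calcrl had 265 to 426 in Calca-only sums, 87.2 to 470 in efferent-gated sums and 105 to 228 in ungated sums. It was 1.24 ± 0.13 higher than in ungated cells (adjusted p = 0.0018, edgeR) with no overlap, and 0.45 ± 0.18 above efferent-gated cells, which did not pass (adjusted p = 0.23, edgeR).

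Ramp2 was present at 322 to 556 in Calca-only sums, and its ranges overlapped in all comparisons. Ramp3 stood between the classes, with 173 to 290 in Calca-only, 65.5 to 99.8 in efferent-gated and 305 to 497 in ungated sums, none of which overlapped. Of the 7 genes of the family tested against ungated cells, Calcrl and Calcb were higher and Ramp3 and Ackr3, the gene of a scavenger receptor for adrenomedullin, were lower. The log2 difference of Ramp3, -0.69 to -0.59 with a group left out, was about that of the median gene in that comparison, -0.63. The call for Calcb ended without any of the 3 BTBRob/ob groups (adjusted p up to 0.071, edgeR). Calcb, which encodes the second CGRP and lies at chr7:114718643-114723365 near Calca, reached 20 in 3.06% of members only, and its sums ran from 0 to 38.0. The transcripts of Calca and Calcb share 12 runs of 50 bases, the read length, of 1678 in Calca and 1260 in Calcb, so a small part of the reads of either gene cannot be told apart.

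Of the 12 genes listed for the processing of peptide hormones, 5 had no count in the members, and 5 of 12 had none in efferent-gated cells either. In the members, the prohormone convertase gene Pcsk1 and the granin genes Chga, Chgb, Scg2 and Scg3 were at 0. The convertase genes Pcsk5 (20.3 to 117) and Furin (3.73 to 56.9), the amidating enzyme gene Pam (45.6 to 151) and the carboxypeptidase gene Cpd (25.3 to 98.1) were present in every group. Of 7 genes of this list tested against ungated cells, the carboxypeptidase gene Cpe and the chaperone gene Scg5 were lower and none was higher. The deposited counts are per gene and do not separate the calcitonin and CGRP transcripts of Calca.

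Between BTBRob/ob and BTBRLean mice no gene passed within the Calca-only cells. With 3 sums against 3 and age as a factor, 0 of 12738 genes passed the edgeR test (0%), 413 had an unadjusted p under 0.05 (3.24%), and DESeq2 called 314 (140 higher and 174 lower). For Ssu2 the difference was -0.32 ± 0.47 on the log2 scale. Each sum holds 22 to 54 cells, and a difference that did not pass is not shown to be absent. In simulated counts of this design the edgeR test recovered 6% of 4-fold changes. Whether the class contrasts differed between genotypes was tested as an interaction, in which 0 of 15014 genes passed against efferent-gated cells (468 at an unadjusted p under 0.05) and 0 of 19579 against ungated cells (658 at an unadjusted p under 0.05), both by edgeR.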

How the data were processed

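Single ECs of mouse kidney were analysed from 1 table of raw read counts (29735 genes, 5464 cells). Per the methods, the authors trimmed adapters, aligned 50-base reads with TopHat 2.1.1 to GRCm38 (mm10), removed duplicate reads with SAMtools 0.1.18 and obtained the deposited counts per gene with featureCounts (Subread 1.4.6-p5); removing duplicates lowers the counts of highly expressed genes most. They dropped cells under 50000 counts or with epithelial genes; no doublet call was made here, and cells held 50274 to 1489280 counts. Annotation release and strand setting are not given in the sources used here; positions are from GENCODE M21.

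Counts were summed per class and genotype-age group and tested with edgeR 4.0.16 (R 4.3.3; TMM, default low-count filter, quasi-likelihood test, group as a block), and called at an adjusted p under 0.05 (Benjamini-Hochberg). Cells of a group are not replicates. In the class comparisons the block takes out differences between groups, and p-values weigh the class difference against how much it varied over the 6 groups. These groups also differ in age and genotype. Names in the text were limited to rule genes, list members and the 8 genes per comparison and direction with the smallest adjusted p, a log2 fold change of at least 1 and the same sign in all groups, without predicted and ribosomal genes. The members, lists and this rule were chosen with earlier results of these data known. Cavin1, Cavin2, Cavin3 and Madcam1 were not in the table under these symbols. Alternatives were DESeq2 1.42.0, upper-quartile normalization, no low-count filter, other Calca thresholds, members without any efferent gene, cells thinned to 50000 counts, plate or no block, BTBRLean groups only, each group left out, and efferent-gated cells limited by Calca. The limit to Slc14a1 under 50 and Gja5 under 20 was added after seeing the data. The scripts were tested on simulated counts. In each class comparison edgeR recovered 3% of 2-fold changes. It recovered 32% of 4-fold changes against efferent-gated, 35% against all other and 24% against ungated cells. A class difference that did not pass is therefore not shown to be absent. Against efferent-gated cells edgeR called 1 unchanged gene and DESeq2 called 89, so the larger DESeq2 counts are to be read with care. Likeness used log2(level + 1) of genes with a level of 10 or more in at least 1 class.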

Additional observations from a re-analysis of the deposited data

Results flagged for a closer look

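An outlying value was looked for in 88 sets (Dixon's test, 95% level), which were the Calca-only sums of single genes over the 6 groups and the shares of Calca-only cells over the plates of the 4 groups with 4 or 5 plates. Of these sets 4 held one, where chance gives about 1 in 20. Slc6a6 had its lowest level in 6-week BTBRLean mice, 956, against 1278 to 1487 in the other groups. Pkn3 had its highest level in 6-week BTBRob/ob mice, 289. Npr3, a natriuretic peptide clearance receptor gene, had its highest level in 11-week BTBRob/ob mice, 2.46, and Csf2rb its lowest in 20-week BTBRLean mice, 0.0753, both within levels near 0. None of the 4 sets of plate shares held one; groups with fewer plates were not tested. No named gene passed the test of a difference in class contrast between genotypes.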

How the results depend on the processing

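Against efferent-gated cells, the 544 genes called became 2038 with DESeq2, 832 with no group block, 52 in BTBRLean groups only, 8 with efferent-gated cells limited to Calca at 50 or more, and 185 with the limit on Slc14a1 and Gja5 that was chosen after seeing the data; leaving out a group gave 334 (without 6-week BTBRLean mice) to 510. Against all other cells, 1579 became 3341 with DESeq2, 678 with cells thinned to 50000 counts, 896 with no group block, 4780 with plate as the block and 35 in BTBRLean groups only, and 1011 (without 11-week BTBRLean mice) to 1191 with a group left out. Against Calca-low ungated cells, 1023 became 3661 with DESeq2, 309 with thinned cells, 6143 with plate as the block and 3 in BTBRLean groups only, and 256 (without 11-week BTBRLean mice) to 537 with a group left out. The cause was not tested, other than that the setting with BTBRLean groups only leaves 3 groups. Between genotypes, 0 became 314 with DESeq2. Limiting efferent-gated cells to Calca at 50 or more turned the log2 difference of Ssu2 to -0.36, Thbd to -0.30, Gja4 to 0.011, Ctgf to 0.30, Hpgd to 0.0010, Olfm2 to 0.29 and Calcrl to -0.40; the limit on Slc14a1 and Gja5 turned Ssu2 to -0.16 and Calcrl to -0.046. None of these reversed values passed. Ssu2 between genotypes ran from -0.98 to 0.11 with a group left out. Ssu2 against all other cells passed in every alternative run. The share of Calca-only cells was 2.31% when members had no efferent gene at 20 or more.

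Of 125 tests of named genes, 14 to 19 no longer passed when a group was left out, and 80 of 123 in BTBRLean groups only. Scaling moved the median log2 difference of all genes against ungated cells from -0.63 to -0.41 (DESeq2) and against all other cells from -0.36 to -0.54 (upper quartile), and the share of higher calls against efferent-gated cells from 47.6% to 37.3% (DESeq2). After thinning, 180 cells met the rule, 172 of them members at full depth. Classes were paired within each genotype-age group by the group block; by replicate number, no paired analysis was possible because cells carry none that groups share. With 4 to 15 efferent-gated cells with Calca per group and 22 to 54 members, a difference that did not pass there is not shown to be absent.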
